A study of Arabidopsis thaliana with 24 samples.

Results

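The 10 genes described here belong to the gene families of trehalose synthesis and breakdown, and are read from 24 Affymetrix ATH1 arrays of Arabidopsis thaliana Col-0 wild type. They are the trehalose-6-phosphate synthase TPS1 (AT1G78580), its relatives TPS5 (AT4G17770), TPS6 (AT1G68020), TPS7 (AT1G06410), TPS8 (AT1G70290), TPS9 (AT1G23870), TPS10 (AT1G60140) and TPS11 (AT2G18700), the phosphatase TPPA (AT5G51460) and the trehalase TRE1 (AT4G24040). They were taken by locus code, and 10 of 10 are among the 20777 loci measured. Plants were raised in vitro without mannitol (0 mM, control) or with it at 25 mM, a sugar alcohol used here to impose osmotic stress. Each treatment was harvested at 4 stages with 3 arrays each. The stages were seedling shoots (the vegetative part, stage 1.03) and leaf 3 while it proliferated (day 9 after sowing, about 0.1 mm2), expanded (day 15, about 7 mm2) or was mature (day 22, about 40 mm2). Each array carries RNA pooled from many plants and plates of an experiment, with 3 independent experiments per group. A seedling sample mixes all shoot organs, whereas the leaf samples are labelled as leaf 3. All groups share the wild-type genotype, and no plant line or transgene was varied.

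Trehalose is made in 2 steps. A synthase joins UDP-glucose and glucose 6-phosphate to trehalose 6-phosphate, and a phosphatase turns this into trehalose, which trehalase splits into glucose. In plants trehalose 6-phosphate is known mainly as a signal of sucrose supply, and it inhibits the kinase SnRK1, which promotes carbon-saving and restrains growth when sugar is short. TPS1 is the class I synthase of Arabidopsis leaves with known enzyme activity. TPS5 to TPS11 are class II proteins, which carry synthase-like and phosphatase-like parts and for most of which no enzyme activity has been shown. In Arabidopsis, TPS5 transcripts are known to rise with sugar supply, and those of TPS8 to TPS11 with carbon shortage.

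Values are log2 expression levels from RMA, a method that summarises the probes of a gene on each array, so a difference of 1 on this scale is 2-fold. Array medians ran from 5.91 to 6.16, and arrays of a group correlated at 0.990 to 0.997. A group mean under 5.11, the 40th percentile of all values, is called dim here. This applies to TPS10 in proliferating control and in expanding leaf of either treatment, and to TRE1 in proliferating leaf. Differences were tested with limma over all loci, and the calls use a threshold of 0.05 on the adjusted p. Unless stated otherwise, ± after a level is the SD over 3 arrays and ± after a difference is its SE. Levels of different genes rest on different probes and are not compared. The markers of dividing cells matched the stage labels: the mean level of 4 such genes lay between 9.85 and 10.09 on the arrays of proliferating leaf and between 4.72 and 5.07 on those of mature leaf. The 4 root markers were dim in every group, and so were 3 of 4 shoot meristem markers (KNAT1, WUS and CLV3).

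With mannitol, 4 of the 10 genes were called at 1 stage or more. The share of all loci called at any stage was not counted, so shares are given by stage below. In expanding leaf TPPA fell by 0.70 (adjusted p = 0.000642) and TPS5 rose by 0.34 (adjusted p = 0.0481). In mature leaf TPS11 fell by 0.81 (adjusted p = 0.00512) and TRE1 fell by 0.76 (adjusted p = 0.00336). In seedling shoots TPPA fell by 0.52 (adjusted p = 0.0294), and in proliferating leaf 0 of the 10 genes passed the limma test (1 had an unadjusted p under 0.05). Of all loci, 1.45% were called in seedlings, 1.81% in proliferating leaf, 7.65% in expanding leaf and 4.83% in mature leaf. By direction, 1.17% of loci were higher and 0.274% lower in seedlings, 1.57% and 0.241% in proliferating leaf, 4.02% and 3.62% in expanding leaf, and 2.99% and 1.84% in mature leaf. In expanding and mature leaf the direction of the background depends on the processing. In mature leaf 621 loci were higher and 382 lower with mannitol, but 480 and 627 after each array was centred on its median. In expanding leaf 836 were higher and 753 lower, but 784 and 829 after this centring. With dim loci left out the expanding leaf gave 776 higher and 799 lower. The control and mannitol arrays did not overlap for 2 of the 10 genes in seedlings (TPS7 and TPPA, both lower with mannitol), 1 in proliferating leaf (TPS11, higher), 5 in expanding leaf (TPS5 higher, TPS7, TPS8, TPPA and TRE1 lower) and 5 in mature leaf (TPS5 higher, TPS8, TPS9, TPS11 and TRE1 lower). The same held for 16.3% of all loci in seedlings (7.23% higher, 9.05% lower), 17.1% in proliferating leaf (7.11% and 9.94%), 20% in expanding leaf (9.3% and 10.7%) and 24.6% in mature leaf (10.4% and 14.2%). The median change of the 10 genes was -0.11 in seedlings, 0.086 in proliferating, -0.23 in expanding and -0.015 in mature leaf, where the median over all loci lay between -0.036 and -0.014.

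**Figure D1:**
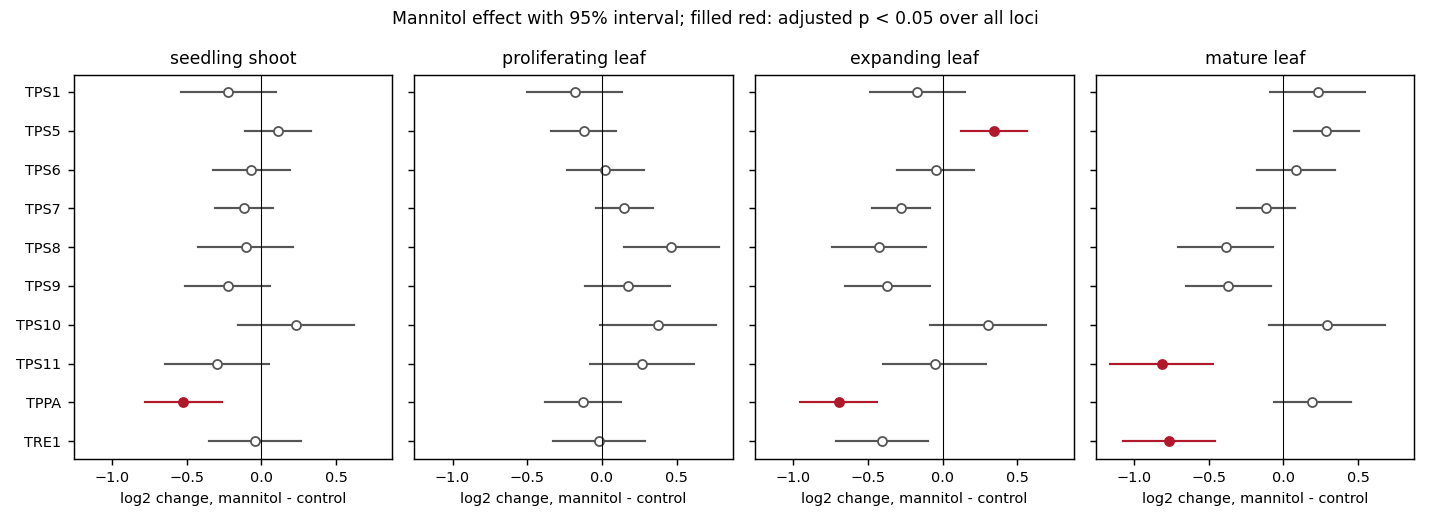
Mannitol effect on each of the 10 genes at the 4 stages, as the log2 difference mannitol minus control (x axis) with its 95% interval, not adjusted for the number of genes. Filled red points passed the test over all loci: TPPA in seedlings and expanding leaf, TPS5 in expanding leaf, and TPS11 and TRE1 in mature leaf.

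Larger differences lay between the stages of leaf 3. From proliferating to expanding control leaf 7 rose, 1 fell and 2 did not pass, with a median difference of 0.53 against 0.041 over all loci. From expanding to mature control leaf 6 rose, 2 fell and 2 did not pass, with a median of 0.52 against 0.014. Under mannitol the counts were 5 and 2 for the first step and 7 and 1 for the next. Many loci also differ between stages, since 60.6% were called in the first step of control leaves (29.1% higher, 31.5% lower) and 40.4% in the next (18.8% higher, 21.6% lower). Under mannitol those shares were 65% (33.2% higher, 31.8% lower) and 40.1% (18.6% higher, 21.5% lower). Centring the arrays moved the split of all loci in the control step to mature leaf from 3904 higher and 4493 lower to 5164 and 3672. It moved the split in the mannitol step to expanding leaf from 6897 and 6605 to 9520 and 5735. The control step to expanding leaf went from 6048 and 6537 to 7778 and 5773. The mannitol step to mature leaf went from 3856 and 4467 to 4399 and 3846. The same centring shifts all loci by 0.052 to 0.13 in these 4 comparisons, and stage differences smaller than this have no settled direction.

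**Figure D2:**
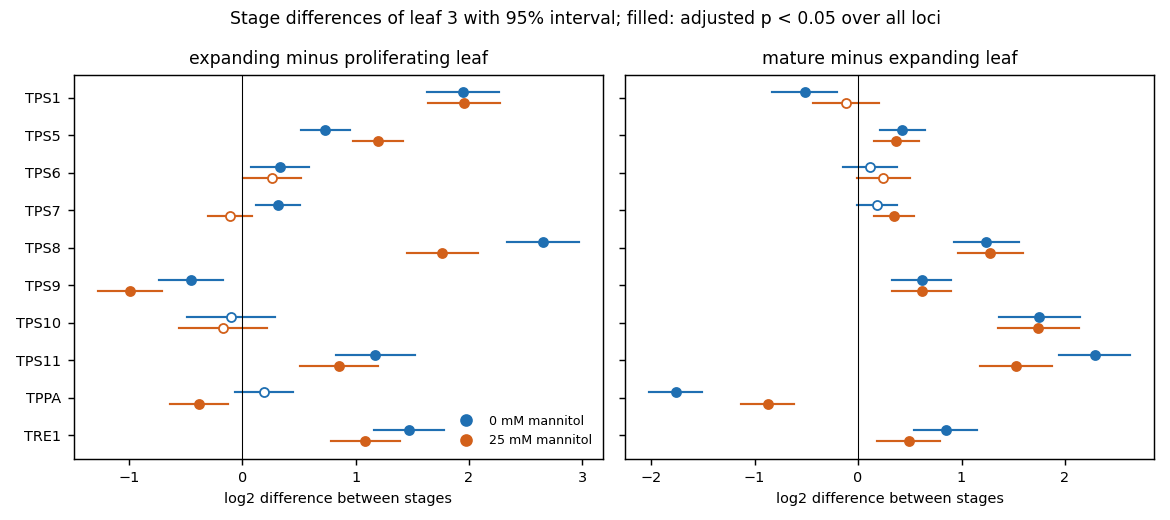
Differences between successive stages of leaf 3 for the 10 genes, as log2 differences with 95% intervals, in control (blue) and mannitol (orange) plants; filled points passed the test over all loci. TPS5, TPS8, TPS11 and TRE1 rose at each step in either treatment, and TPPA fell from expanding to mature leaf, by less with mannitol.

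Markers of several cell types changed over the same steps. All 4 markers of dividing cells fell from proliferating to expanding control leaf (median -4.03), and all 3 phloem markers (median 5.25) and all 5 guard cell markers (median 1.63) rose. From expanding to mature control leaf 2 of 4 dividing cell markers fell (median -1.09), and the phloem and guard cell medians moved by 0.094 and -0.31. The mean level over the phloem markers rose from a range of 4.42 to 4.53 on proliferating control arrays to 9.05 to 9.08 on expanding ones. Their part in the changes of the trehalose genes was not tested. In such samples fewer cells of a type and less RNA per cell cannot be told apart.

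**Figure D3:**
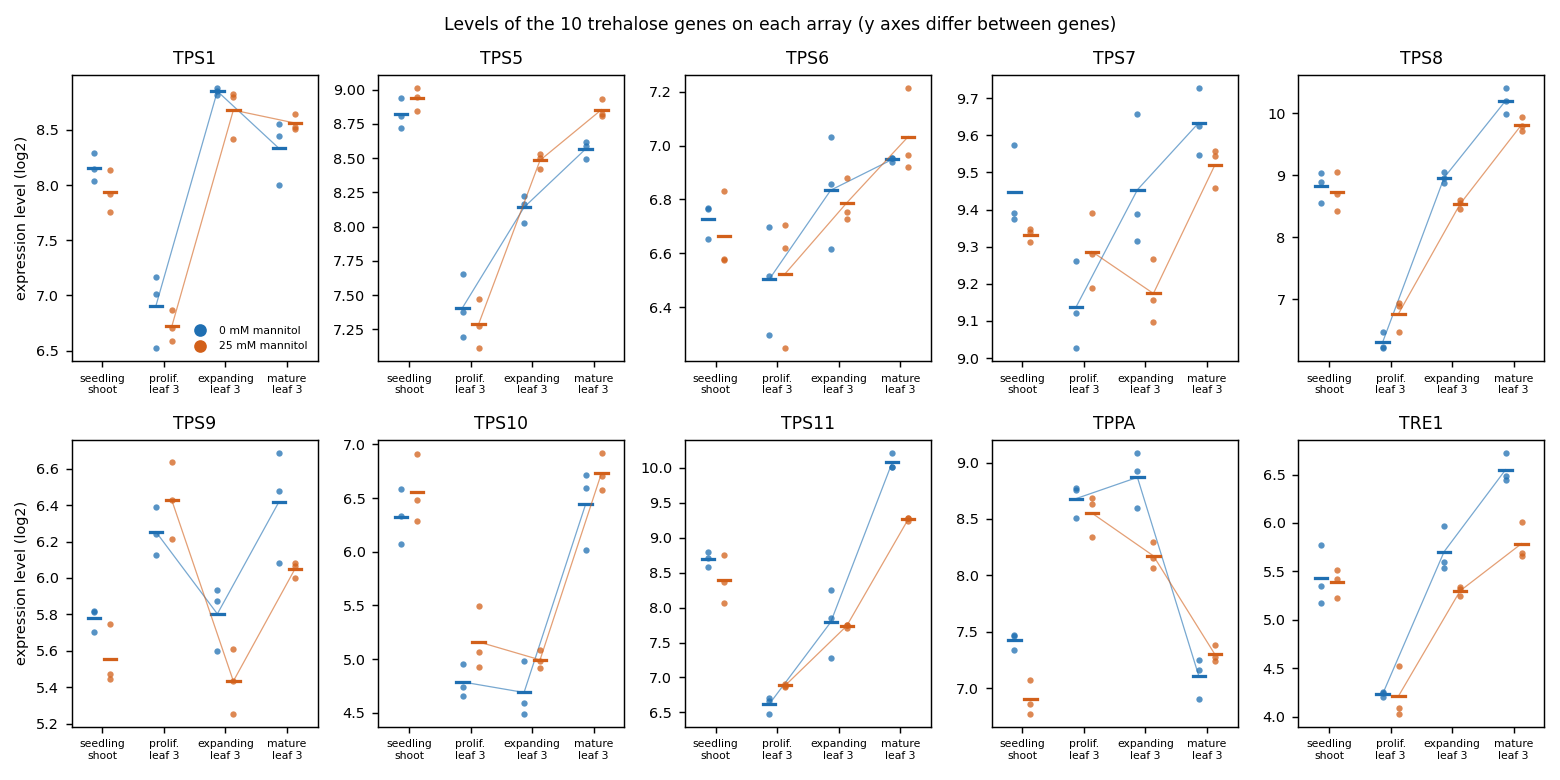
Level of each gene on every array (points), with group means as bars and lines joining the 3 stages of leaf 3, for 0 mM (blue) and 25 mM (orange) mannitol; the log2 axis has its own range in each panel. In mature leaf the 3 mannitol arrays of TPS11 and of TRE1 lie below all 3 control arrays, and the groups of TPPA lie apart in seedlings and expanding leaf.

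TPS1, the synthase, was lowest in the proliferating leaf and highest in the expanding leaf. In control plants its levels were 7.17, 7.02 and 6.52 on the proliferating arrays, 8.85, 8.88 and 8.82 on the expanding, 8.55, 8.44 and 8.0 on the mature and 8.14, 8.03 and 8.29 on the seedling arrays. No expanding array overlaps a proliferating one, and the rise between them was 1.95 ± 0.15, adjusted p = 1.15e-10. TPS1 then fell by 0.52 ± 0.15 to the mature leaf (adjusted p = 0.00881), a call that was lost without mature control replicate 3 (0.0854). Mature leaf and seedling did not differ beyond their spread in control plants (adjusted p = 0.34). With mannitol the 3 arrays read 6.87, 6.59 and 6.71 in proliferating, 8.80, 8.82 and 8.42 in expanding, 8.65, 8.53 and 8.51 in mature leaf and 7.76, 7.92 and 8.13 in seedlings. The groups overlap at every stage. The mannitol differences were -0.22 in seedlings, -0.18 in proliferating, -0.17 in expanding and 0.23 in mature leaf, with adjusted p from 0.438 to 0.865.

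TPS8, a class II protein, had the widest range of the 10 genes over the 8 groups, 3.89, which is wider than that of 96.9% of loci. Control levels were 6.21, 6.48 and 6.23 in proliferating leaf, 9.06, 8.96 and 8.87 in expanding leaf and 10.20, 10.41 and 9.99 in mature leaf, with no overlap between stages. The first step raised it by 2.65 ± 0.15, adjusted p = 4.43e-13 (6.29-fold), and the next by 1.24 ± 0.15, adjusted p = 5.96e-07 (2.36-fold). Seedling shoots, at 9.04, 8.55 and 8.90, did not differ from expanding leaf beyond the spread (adjusted p = 0.539). On mannitol the arrays read 6.47, 6.94 and 6.90 in proliferating, 8.55, 8.61 and 8.45 in expanding, 9.95, 9.71 and 9.79 in mature leaf and 9.06, 8.43 and 8.69 in seedlings. In expanding and mature leaf all 3 mannitol arrays lie below all 3 control arrays, yet neither difference passed the test (-0.42 ± 0.15, adjusted p = 0.102, and -0.39 ± 0.15, adjusted p = 0.157). Groups lying apart in this direction were found for 10.7% and 14.2% of all loci at these stages. In proliferating leaf, where the groups overlap, the difference had the other sign (0.46 ± 0.15, adjusted p = 0.175), and in seedlings it was -0.10.

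TPS11, another class II protein, rose at each step of leaf growth. It read 6.71, 6.66 and 6.48 on the control arrays of proliferating leaf, 7.27, 8.25 and 7.85 on those of expanding leaf and 10.02, 10.21 and 10.01 on those of mature leaf. The stages do not overlap, and the expanding controls have the widest spread of this gene (SD 0.49). The steps were 1.17 ± 0.17, adjusted p = 1.58e-06, and 2.29 ± 0.17, adjusted p = 1.81e-10 (4.88-fold). Seedling shoots (8.80, 8.58 and 8.70) lay between mature and expanding leaf, apart from either (adjusted p = 2.69e-07 and 0.00019). With mannitol the mature leaf read 9.28, 9.23 and 9.28, and the change from control was -0.81 ± 0.17, which is 1.76-fold lower. The groups do not overlap, and the call held in all 12 alternatives, with adjusted p from 0.00256 to 0.0257. In the other groups on mannitol TPS11 read 6.87, 6.88 and 6.91 in proliferating leaf, 7.75, 7.75 and 7.71 in expanding leaf and 8.76, 8.37 and 8.06 in seedlings. Those differences were 0.27, -0.053 and -0.30, with adjusted p from 0.668 to 0.922. The arrays of proliferating leaf lie apart all the same, higher with mannitol, as do those of 7.11% of loci.

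TPS5 was the class II gene that rose with mannitol. Expanding leaf read 8.03, 8.23 and 8.17 in control and 8.42, 8.50 and 8.53 with mannitol, without overlap, a rise of 0.34 ± 0.11 (1.27-fold). The call is close to the threshold. It was lost when any array but control replicate 2 was left out, with centred arrays and with the fit of this stage alone (adjusted p = 0.0582 to 0.189). In mature leaf the arrays also lie apart, 8.62, 8.50 and 8.59 against 8.93, 8.82 and 8.81, but the difference of 0.29 did not pass (adjusted p = 0.123). Groups apart and higher with mannitol were found for 9.3% of loci in expanding and 10.4% in mature leaf. In seedlings (8.94, 8.81 and 8.72 in control, 8.94, 8.85 and 9.02 with mannitol) and proliferating leaf (7.38, 7.19 and 7.65 and 7.11, 7.27 and 7.47) the groups overlap, with differences of 0.11 and -0.12. In control plants TPS5 was highest in seedlings, then mature (adjusted p = 0.0461 between them), expanding (0.00218) and proliferating leaf (1.9e-06). With mannitol it rose by 1.2 from proliferating to expanding leaf (adjusted p = 8.3e-10) and by 0.37 to mature leaf (0.00674).

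TPS10 separated the stages in another way. Control means were 6.44 ± 0.37 in mature leaf and 6.33 ± 0.26 in seedlings, which did not differ beyond their spread (adjusted p = 0.625). They were 4.79 ± 0.15 in proliferating and 4.69 ± 0.26 in expanding leaf, both dim and also not apart (adjusted p = 0.677). The rise to mature leaf, on arrays at 6.02, 6.72 and 6.59, was 1.75 ± 0.19, adjusted p = 7.77e-08. With mannitol it was 1.74, nearly the same size. The mannitol differences of TPS10 were positive at each stage, from 0.23 in seedlings to 0.37 in proliferating leaf, but the groups overlap and adjusted p was 0.412 or more.

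TPS9 had its lowest leaf level at expansion. Control arrays read 6.39, 6.24 and 6.13 in proliferating, 5.94, 5.88 and 5.60 in expanding and 6.09, 6.69 and 6.48 in mature leaf, and 5.82, 5.70 and 5.81 in seedlings. It fell by 0.45 in the first step (adjusted p = 0.00661) and rose by 0.61 in the next (adjusted p = 0.000827). Under mannitol the fall was 0.99 and the rise 0.62. In mature leaf all mannitol arrays (6.08, 6.0 and 6.06) lie just below the lowest control array, control replicate 1, and the difference of -0.37 did not pass (adjusted p = 0.131). Without that array it passed (-0.53, adjusted p = 0.0329).

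TPS6 and TPS7 varied least, with group means spanning 0.53 and 0.50, less than in most loci. TPS6 read from 6.25 to 7.21 over all 24 arrays, and TPS7 from 9.03 to 9.73. TPS6 rose by 0.33 from proliferating to expanding control leaf (adjusted p = 0.0255), though the arrays overlap and the call ended without proliferating control replicate 1 or expanding control replicate 1 or 3, and with the fit of these groups alone (adjusted p = 0.0576 to 0.157). TPS7 rose by 0.32 in that step (adjusted p = 0.00525), a call that ended without expanding control replicate 1 (adjusted p = 0.0543) and with the fit of these groups alone (0.0501). From expanding to mature leaf it rose with mannitol (0.35 ± 0.093, adjusted p = 0.0044) and was not called in control (0.18 ± 0.093, adjusted p = 0.135). The control step was called with centred arrays (0.27, adjusted p = 0.02) and without expanding control replicate 1 (0.28, adjusted p = 0.0208). With mannitol TPS7 in expanding leaf read 9.27, 9.16 and 9.10 against 9.66, 9.32 and 9.39 in control, apart but not called (-0.28 ± 0.093, adjusted p = 0.0745). That difference crossed the threshold with centred arrays (adjusted p = 0.0498) and without control replicate 2 (0.0332). The mannitol differences of TPS6 lay between -0.066 and 0.085, and their sign in proliferating leaf turned with the scaling.

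TPPA, the phosphatase of the set, fell from expanding to mature leaf and fell with mannitol in expanding leaf and in seedlings. Control arrays read 8.51, 8.76 and 8.77 in proliferating leaf and 9.09, 8.60 and 8.92 in expanding leaf, which did not differ beyond their spread (adjusted p = 0.199). Centred arrays gave a call here (0.29, adjusted p = 0.0338), as did leaving out expanding control replicate 2 (0.32, adjusted p = 0.0306). Mature leaf read 7.16, 6.91 and 7.25, a fall of 1.76 ± 0.12 (3.4-fold, adjusted p = 9.59e-11), and seedlings 7.34, 7.46 and 7.47. With mannitol the expanding leaf read 8.30, 8.06 and 8.16, all below the lowest control array. The change was -0.70 ± 0.12 (1.62-fold lower), called in all 12 alternatives with adjusted p from 0.000132 to 0.025. In seedlings the 3 mannitol arrays (6.78, 6.86 and 7.07) also lie below the controls, with a change of -0.52 ± 0.12. That call was lost without any single seedling array other than mannitol replicate 3 (adjusted p = 0.0569 to 0.145). From proliferating to expanding leaf on mannitol TPPA fell by 0.38 (adjusted p = 0.0102), a call lost with centred arrays (0.0604) and without proliferating mannitol replicate 2 (0.056). Proliferating leaf (8.34, 8.69 and 8.63 with mannitol) and mature leaf (7.28, 7.24 and 7.38) showed -0.13 and 0.19, neither called (adjusted p = 0.831 and 0.409). At the stages where TPPA fell, 2 of 5 guard cell markers were called lower too. Of all loci, 0.274% were called lower in seedlings and 3.62% in expanding leaf. The 5 markers had a median of -0.25 in seedlings, from -0.90 to 0.068, and of -0.25 in expanding leaf, from -1.0 to 0.21. MYB60 changed by -0.90 in seedlings and -0.53 in expanding leaf, and KAT1 by -0.77 and -1.0. The mean level over the 5 markers ran from 6.12 to 6.43 on control and 5.76 to 5.98 on mannitol arrays of seedlings, and from 6.30 to 6.42 and 5.99 to 6.18 in expanding leaf. Of 4 dividing cell markers 1, the cytokinesis syntaxin KNOLLE, was called higher in expanding leaf (0.48). The 4 markers there had a median of 0.35, from -0.39 to 0.48. Arrays lay apart and higher with mannitol for 3 of them, as for 9.3% of all loci. In seedlings their median was -0.054, with 0 called. Their part in the fall of TPPA was not tested.

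TRE1, the trehalase of Arabidopsis, rose with leaf age and fell with mannitol in the mature leaf. Control arrays read 4.25, 4.24 and 4.20 in proliferating, 5.54, 5.97 and 5.60 in expanding and 6.72, 6.44 and 6.49 in mature leaf. The steps were 1.47 ± 0.15, adjusted p = 7.44e-09, and 0.85 ± 0.15, adjusted p = 6.13e-05, and the proliferating level is dim. With mannitol the step to mature leaf was 0.49 ± 0.15, adjusted p = 0.0105, a call lost without mature mannitol replicate 3 (0.38, adjusted p = 0.0763). Seedlings, at 5.35, 5.77 and 5.17, did not differ from expanding leaf beyond the spread (adjusted p = 0.166). With mannitol the mature leaf read 5.66, 5.69 and 6.01, every array below the lowest control. The change was -0.76 ± 0.15 (1.7-fold lower), called in all 12 alternatives with adjusted p from 0.00289 to 0.027. In expanding leaf the mannitol arrays (5.32, 5.24 and 5.34) again lie below the controls, but -0.40 did not pass (adjusted p = 0.11). Proliferating leaf (4.52, 4.03 and 4.09) and seedlings (5.52, 5.42 and 5.23) overlapped their controls, with differences of -0.018 and -0.042. In mature leaf 0 of 5 guard cell and 0 of 3 phloem markers were called with mannitol by limma (2 and 2 had an unadjusted p under 0.05). The guard cell median was -0.18, from -0.44 to 0.20. Of 4 dividing cell markers 1 was called higher (PCNA1, 0.42), as were 2.99% of all loci. The mean level over the guard cell markers there ran from 5.83 to 6.12 in control and 5.80 to 5.84 with mannitol. The 3 phloem markers were all higher with mannitol without a call, by 0.15 to 0.38 (SUC2 0.15, APL 0.27 and AHA3 0.38). Arrays lay apart and higher for 2 of them, as for 10.4% of all loci. Their mean level ran from 9.09 to 9.40 in control and 9.36 to 9.61 with mannitol. The part of these markers in the falls of TRE1 and TPS11 was not tested.

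Whether the mannitol effect differed between the 4 stages was asked with a limma F test of equal effects. It called 3 of the 10 genes, TPPA (adjusted p = 0.011), TPS11 (0.0395) and TPS8 (0.0439), against 3.69% of all loci. TRE1 did not pass (0.0924), so its fall in mature leaf is not shown to be particular to that stage, and neither is the rise of TPS5 in expanding leaf (0.206). The TPPA call held in all 29 alternatives. That of TPS8 held in 11 of 29 (adjusted p = 0.0153 to 0.124) and was lost with the replicate block (adjusted p = 0.0535), and that of TPS11 held in 12 of 29 (0.00563 to 0.0967). With quantile normalization TPPA alone was called. For the remaining 5 genes, TPS1, TPS6, TPS7, TPS9 and TPS10, adjusted p ran from 0.242 to 0.988, which does not show that their effects are equal. For TPS10, for example, the effect in mature leaf minus that in proliferating leaf was -0.08, with a 95% interval of -0.63 to 0.47.

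The pairs of stages show where the effects part. The TPPA effect was higher in mature leaf than in expanding leaf by 0.89 ± 0.18, adjusted p = 0.0053, so the fall of TPPA between these stages was 0.87 with mannitol and 1.76 without. It was also higher in mature leaf than in seedlings, by 0.72 ± 0.18, adjusted p = 0.042. Of 18 alternatives for this pair, 8 kept the call, and leaving out mature control replicate 3 or seedling mannitol replicate 3 were the only omissions among them. The TPS11 effect was lower in mature than in proliferating leaf by 1.08 ± 0.24 (adjusted p = 0.0124), a call kept in all 18 alternatives. The same numbers read the other way: TPS11 rose by 3.46 from proliferating to mature control leaf and by 2.38 with mannitol. Its effect in mature leaf minus that in expanding leaf was -0.76 (adjusted p = 0.0792), and minus that in seedlings -0.52 (0.383), neither called. The fall of TPS11 is thus not shown to be particular to mature leaf. The TPS8 effect was lower in expanding and in mature leaf than in proliferating leaf, by 0.89 (adjusted p = 0.0422) and 0.85 (0.0325), calls kept in 7 and 10 of 18 alternatives. TPS8 thus rose by 3.89 to maturity in control leaves and by 3.05 on mannitol. Of all loci, 3.41% were called for mature against expanding leaf, 1.3% for mature leaf against seedlings, 2.64% for mature against proliferating leaf and 1.3% for expanding against proliferating leaf. For expanding and proliferating leaf against seedlings, where 0 members were called by limma, the shares were 0.188% and 0.207% (0 and 3 members had an unadjusted p under 0.05).

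The order of the stages was mostly clear. Of 120 comparisons, 6 pairs of stages in either treatment for 10 genes, 90 passed the test. Such calls are common among all loci: besides the steps given above, 67.7% of loci differed between mature and proliferating leaf in control plants (65.6% with mannitol). Against seedlings, proliferating leaf differed in 57.2% (59.4%), expanding leaf in 32.8% (32.2%) and mature leaf in 51.8% (43%). In control plants the highest stage was mature leaf for 7 genes (TPS6 to TPS11 and TRE1), expanding leaf for TPS1 and TPPA and seedlings for TPS5. For TPS6, TPS7, TPS9, TPS10 and TPPA the highest stage did not differ from the next beyond the spread (adjusted p = 0.135 to 0.625). With mannitol the proliferating leaf was highest for TPS9 (adjusted p = 0.0192 against mature leaf) and TPPA (0.0102 against expanding leaf). The other 8 genes had their highest mean at the same stage as in control plants. For TPS1, TPS5, TPS6, TPS7 and TPS10 that mean was not apart from the next with mannitol (adjusted p = 0.596, 0.59, 0.128, 0.114 and 0.502).

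The other genes of the pathway measured here, 12 in number, are the synthases TPS2 to TPS4, which belong to class I with TPS1, and the phosphatases TPPB to TPPJ. Of the 12, 7 were dim in every group (TPS2, TPS3, TPS4, TPPB, TPPC, TPPD and TPPI). With mannitol 1 of 12 was called: TPPH fell in expanding leaf from 7.11, 6.57 and 6.94 to 6.58, 6.41 and 6.21 (-0.48 ± 0.14, adjusted p = 0.0439), though the arrays overlap. Of all loci 7.65% were called there. This call of TPPH is close to the threshold and was not checked under the alternatives. TPPH in proliferating leaf (-0.45 ± 0.14, adjusted p = 0.15), TPPF in seedlings (-0.54 ± 0.16, adjusted p = 0.124) and TPPJ in expanding leaf (0.50 ± 0.16, adjusted p = 0.0587) were not called. The 7 dim genes showed differences between -0.28 and 0.22. TPPE and TPPG showed differences from -0.19 to 0.38 and from -0.35 to 0.20 over the stages. Over leaf growth 5 of 12 rose and 1 fell in the first control step, in which 60.6% of all loci were called (29.1% higher, 31.5% lower). TPPH rose by 2.74, TPPE by 1.89, TPPF by 1.15, TPPJ by 0.88 and the dim TPPD by 0.70, while the dim TPPI fell by 0.80. From expanding to mature control leaf, where TPPA fell by 1.76, TPPJ rose by 2.37 and TPPH by 0.50. No phosphatase other than TPPA and TPPD fell in that step (-0.45 for TPPD).

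SnRK1, the kinase that trehalose 6-phosphate inhibits, is built from a catalytic and several regulatory subunits and is activated by the kinases GRIK1 and GRIK2. Of these 9 genes 0 were called with mannitol in seedlings or proliferating leaf by limma (1 and 0 had an unadjusted p under 0.05), 2 fell in expanding leaf and 1 in mature leaf, where 3.62% and 1.84% of all loci were lower. The catalytic subunit KIN11 fell in expanding leaf (-0.39 ± 0.12, adjusted p = 0.0483), and the regulatory subunit KINB1 in expanding (-0.37 ± 0.11, adjusted p = 0.0435) and mature leaf (-0.64 ± 0.11, adjusted p = 0.00147). KIN10, the other catalytic subunit, named here after its values were seen, showed 0.078 and 0.16. The effect on KINB1 differed between stages (F test, adjusted p = 0.0214). The calls of KIN11 and KINB1 in expanding leaf are close to the threshold, and no call of these genes was checked under the alternatives.

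Genes linked to sugar starvation or darkness were read beside the class II genes. Of 12, 5 fell and 1 rose with mannitol in mature leaf (median -0.32), and 2 fell in expanding leaf (median -0.082), against 1.84% of loci lower in mature and 3.62% in expanding leaf. DIN10, a raffinose synthase-like gene, fell by 1.21 in expanding and 1.65 in mature leaf (adjusted p = 0.000674 and 6.39e-05). The transcription factor bZIP63 fell by 1.06 and 0.74. DIN1, bZIP1 and the dim DIN2 fell in mature leaf by 1.09, 0.74 and 0.38. bZIP11, a transcription factor whose translation sucrose represses, rose there by 0.70. The asparagine synthase DIN6, a common marker of SnRK1 activity named after its values were seen, was not called at any stage (0.072 in mature leaf, adjusted p = 0.938). In seedlings and proliferating leaf 0 of the 12 were called by limma (1 and 3 had an unadjusted p under 0.05).

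**Figure D4:**
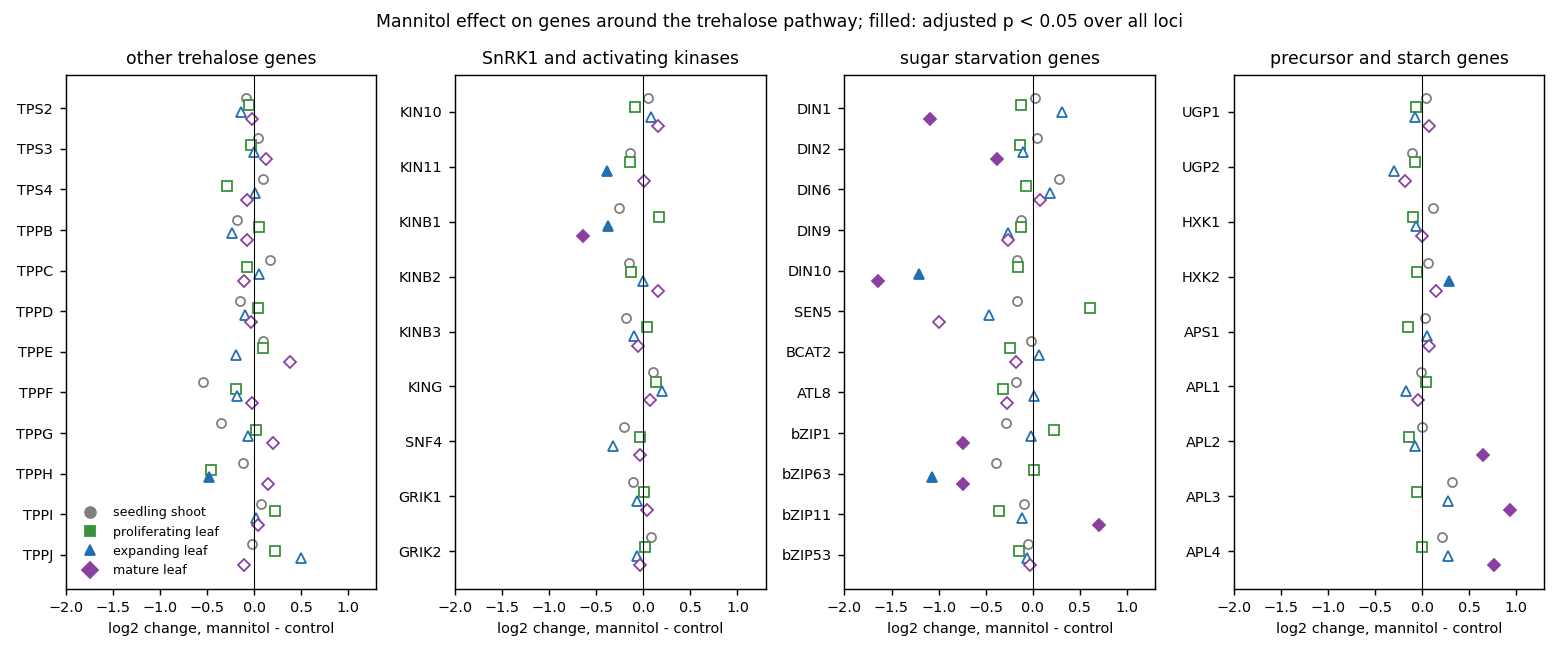
Mannitol effect (log2 difference, mannitol minus control) on the other trehalose genes, SnRK1 and its activating kinases, sugar starvation genes, and genes of precursor supply and starch synthesis, at the 4 stages (symbols); filled symbols passed the test over all loci. Filled symbols to the left in mature leaf include DIN1, DIN10, bZIP1, bZIP63 and KINB1, and those to the right bZIP11, APL2, APL3 and APL4.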

How the data were processed

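Per the submitters' processing notes the authors used RMA, and the deposited table gives a log2 level for each locus on each array. The RMA version and the probe grouping are not given here by any label. No further normalization was applied. Samples were grouped by title, because the treatment protocol mentions mannitol even for controls. Means of the 8 groups were estimated from 24 arrays and 20777 loci together in R 4.3.3 with limma 3.58.1 (lmFit and eBayes), with Benjamini-Hochberg adjustment over all loci within each comparison, and was tested on simulated data. The number of arrays limits the precision. Members, lists and tests were chosen with earlier results of these data known. All 10 members were named, as were all other trehalose genes measured, the genes of the other lists that were called, and the 3 loci most like each member. Deviations of same-numbered control and mannitol arrays from their group means correlated at 0.0593 to 0.429, over 0.1 in 11 of 12 pairs. The exception was replicate 3 of mature leaf, where pairs 1 and 2 correlated at 0.295 and 0.423. Apart from that exception, the numbers were taken to pair the arrays within a stage. The tests reported here did not use this pairing. The replicate block fits an effect for each replicate number that all stages share, so it does not model pairs within a stage. Alternatives were the replicate block, centred arrays, quantile normalization, dim loci left out, a variance trend, the compared groups alone and each array left out. Calls of single genes under them were read for the 10 members only. Gene names were matched to the RefSeq gene table of TAIR10.1, which named 20508 loci. Protein and promoter sequences, planned as a description, were not used here.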

Additional observations from a re-analysis of the deposited data

Results flagged for a closer look

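The effect of mannitol differed between stages in 5 tests of a difference between a pair of stages. For TPPA the effect in mature leaf minus that in seedlings was 0.72 (adjusted p = 0.042), and minus that in expanding leaf 0.89 (adjusted p = 0.0053). For TPS8 the effect in expanding leaf minus that in proliferating leaf was -0.89 (adjusted p = 0.0422), and that in mature leaf minus that in proliferating leaf -0.85 (adjusted p = 0.0325). For TPS11 the effect in mature leaf minus that in proliferating leaf was -1.08 (adjusted p = 0.0124). All are log2 differences tested with limma over all loci. No test for outlying arrays within the groups of 3 was run, but each array was left out in turn. For TPPA in mature leaf minus seedlings, 10 of 12 omissions ended the call (adjusted p up to 0.11). For TPS8, 10 of 12 ended that of expanding minus proliferating leaf (up to 0.107). For TPS8 in mature minus proliferating leaf it was 8 of 12 (up to 0.0952). The calls of TPPA in mature minus expanding leaf and of TPS11 were kept in every omission.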

How the results depend on the processing

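Of 1500 values of single genes under the alternatives, 1405 kept direction and side of the threshold, 51 lost a call, 17 gained one and 27 changed sign, of which 0 belonged to a call. With the fit of the compared groups alone, 221 loci were called for mannitol in proliferating leaf (377 with all arrays), 832 in expanding leaf (1589) and 481 in mature leaf (1003), and 1 member in expanding leaf (2). With quantile normalization 1 member passed the F test (3). Leaving out each array in turn gave 0 to 1 members called in seedlings (185 to 287 loci), 0 in proliferating leaf (238 to 457), 1 to 3 in expanding leaf (1121 to 1711) and 2 to 3 in mature leaf (476 to 1564). It gave 6 to 9 members for the first stage step in control leaf, 7 to 9 for the next, 7 for the first step with mannitol and 7 to 8 for the next. The F test called 1 to 4 members (531 to 948 loci), and 85 to 91 of the stage pairs passed. The alternatives for the order of stages were chosen after seeing the data. With the replicate block 335 loci were called in seedlings against 301, and the TPS8 F test (adjusted p = 0.0535) was the only call of a member in a mannitol comparison or F test that it ended. Signs turned for TPS6 in proliferating leaf with centred arrays (-0.014) and quantile normalization (-0.010), for TRE1 there with quantile normalization (0.014), and with centred arrays for TPS10 in the first control step (0.0065), TPS7 in the first mannitol step (0.016) and the TRE1 effect in proliferating leaf minus seedlings (-0.013). Leaving out arrays turned the mannitol differences of TPS8 (-0.27 to 0.046) and TRE1 (-0.17 to 0.13) in seedlings, of TPS6 (-0.082 to 0.16) and TRE1 (-0.17 to 0.072) in proliferating leaf, of TPS6 (-0.16 to 0.051) and TPS11 (-0.31 to 0.17) in expanding leaf and of TPS6 in mature leaf (-0.0061 to 0.14). It also turned effect differences between stages: TRE1, proliferating leaf minus seedlings (-0.15 to 0.15), TPS11, expanding leaf minus seedlings (-0.016 to 0.47), and mature minus expanding leaf for TPS5 (-0.098 to 8.9e-07) and TPS8 (-0.065 to 0.14). The cause was not tested.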

Other observations

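Of 9 measured genes of precursor supply and starch synthesis, 0 were called by limma in seedlings and 0 in proliferating leaf (0 had an unadjusted p under 0.05 at either stage). In expanding leaf 1 rose, the hexokinase HXK2 (0.29 ± 0.072, adjusted p = 0.0115). In mature leaf 3 rose, all large subunits of ADP-glucose pyrophosphorylase, which makes the precursor of starch: APL3 (0.93 ± 0.17, adjusted p = 0.00197), APL2 (0.64 ± 0.13, adjusted p = 0.00378) and APL4 (0.76 ± 0.18, adjusted p = 0.0172). APL2 and APL4 were dim in mature control leaf (means 4.87 and 4.59) and not with mannitol (5.52 and 5.35). The median over the list was 0.073 in mature leaf against -0.036 over all loci, where 2.99% of loci were called higher.

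Over the 8 group means, the 3 loci with the highest Pearson r to each member were as follows. TPS1 was closest to EXLB1 (0.998), AT3G12685 (0.996) and AT5G46560 (0.996). For TPS8 they were GSR2 (0.998), NADK2 (0.998) and AT3G26510 (0.997). TPS11 was closest to AT1G76460 (0.993), CLPX (0.99) and NLA (0.99). For TPS5 they were BRH1 (0.994), COR413-PM1 (0.994) and AT1G20640 (0.992). TPS6 was closest to RGA1 (0.997), AT5G07710 (0.994) and ABCB9 (0.993). For TPS7 they were AT5G47310 (0.974), NUDT11 (0.956) and AT1G03250 (0.955). TPS9 was closest to AT4G27340 (0.988), PSF1 (0.986) and ARAD1 (0.968). For TPS10 they were AT1G35190 (0.996), TMT2 (0.988) and AT1G07040 (0.982). TPPA was closest to AT1G77770 (0.987), AT1G15710 (0.986) and BGAL3 (0.982). For TRE1 they were NRT2.7 (0.995), GLX2-1 (0.991) and CVL1 (0.99). An r over 0.95 was reached by 976 loci with TPS8 but by 4 with TPS7. Among the members, TPS8 and TRE1 correlated at 0.975, TPS8 and TPS11 at 0.936, and TPS10 and TPPA at -0.96. These values describe 8 points that share arrays and the large stage differences. They take no account of the size of the changes. Group means spanned 0.34 in TMT2 against 2.05 in TPS10, and 4.05 in EXLB1 against 2.13 in TPS1.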
